A study of Mus musculus with 6 samples.

Results

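Ephrin-A ligands and EphA receptors were followed as a group of 10 genes, taken by symbol from a list drawn up with earlier results of these data known: the ligand genes *Efna2*, *Efna3*, *Efna4* and *Efna5* and the receptor genes *Epha3*, *Epha4*, *Epha5*, *Epha7*, *Epha8* and *Epha10*. They are 10 of 43346 Ensembl mouse genes in the tables, and all 10 passed the filter on low counts, which left 15747 genes to test. RNA was sequenced from mouse retinal ganglion cells (RGCs), the neurons whose axons form the optic nerve, purified by immunopanning for the surface protein Thy1 (CD90.1) and cultured on laminin in medium with forskolin, BDNF and CNTF. The cells received an adeno-associated virus (AAV) that was a control (CONTROL), encoded wild-type Sox11 (SOX11_WT, here Sox11) or encoded Sox11 with lysine 91 changed to alanine (SOX11_MUTANT, here Sox11 K91A), a change made to stop SUMOylation of this transcription factor at that residue. Each group had 2 libraries, for 6 in all. Virus was added 4 h after plating at about 100000 vector genomes per cell, with 250000 cells per well, and RNA was taken 72 h after plating. The age of the animals is given as embryonic day 18 for the RNA-seq and as postnatal day 2 in the general culture text, and the study's mice are described as C57BL/6. All groups, control included, thus received a virus and were kept in the same growth factors, away from the brain targets of their axons.

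Ephrin-A ligands are held to the outer membrane by a lipid anchor, and EphA receptors are tyrosine kinases that bind them on a neighboring cell. Contact signals in both directions: forward into the cell that bears the receptor, often with collapse of the growth cone, and in reverse into the cell that bears the ligand. In the retina these genes are best known for topographic mapping, in which RGC axons with graded amounts of EphA receptors read opposing gradients of ephrin-A in the superior colliculus, and RGCs themselves carry both ligands and receptors.

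The libraries held between 27521981 and 37061718 expected counts. *Sox11* itself, the check of the labels, had 234 and 332 CPM (counts per 1000000, scaled by library) in the control libraries, 9178 and 14591 in the Sox11 libraries and 11971 and 7026 in the Sox11 K91A libraries, and the counts do not separate the virus from the cells' own gene. All 9 RGC markers examined were detected, with a summed level of 10539 to 11390 CPM in control, 5269 to 7885 with Sox11 and 6676 to 8305 with Sox11 K91A. *Nefl* made up most of that sum, with 6345 to 7087, 2188 to 4104 and 3095 to 4328 CPM. Of these markers 3 were called lower with Sox11 (*Slc17a6*, *Thy1* and *Nefl*), beside 10.2% of all genes tested. With Sox11 K91A 1 was called lower (*Slc17a6*), beside 4.81%, and none was called higher with either virus. In each comparison 7 of the 9 log2 fold changes were negative, with medians of -0.18 and -0.16. *Rbpms*, *Pou4f1*, *Pou4f2* and *Sncg*, which were not called, lay between -0.44 and -0.07. The 2 positive genes, also not called, were *Tubb3* (0.32 and 0.45) and *Isl1* (0.05 and 0.08). The summed level of astrocyte and Müller glia markers was 103 to 108 CPM in control and 269 to 314 CPM with either virus, of which *Glul* gave 97.2 to 105 and 267 to 310. Over the 5 tested markers of that list the median log2 fold change was -2.13 and -0.90, with *S100b*, at most 0.467 CPM, called lower with Sox11, and *Gfap* was at 0 in every library. Of 6 amacrine markers *Prox1* was called higher and *Slc6a9* lower with both viruses, and the summed level was 97.8 to 226 CPM in control, 72.7 to 137 with Sox11 and 120 to 128 with Sox11 K91A. *Prkca*, a bipolar cell marker, was called lower with both viruses. Of 5 endothelial markers *Pecam1* and *Tek*, at most 2.23 CPM, were called higher with Sox11 K91A. *Kdr* was not called, and *Cldn5* and *Cdh5*, at most 0.362 CPM, were too low to test. *Pdgfra*, an oligodendrocyte lineage marker with at most 0.931 CPM, was called higher with Sox11. The libraries of control replicate 2 and Sox11 replicate 2 stood apart from the other 4, with *Xist* at 95.9 and 254 CPM against 400 to 526 CPM, and on the principal component that held 16.4% of the variance. In bulk RNA, fewer cells of a type and less RNA per cell cannot be told apart, and the part of these shifts in the results given here was not tested. Nothing states that the 2 libraries of a group came from separate cultures, so p-values measure only the spread between these samples, which may be technical.

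On the GRCm38 genome, in the GENCODE M21 annotation, 3 of the receptor genes lie on chromosome 4. *Epha7* (chr4:28813131-28967499) is on the plus strand with 19 exonic regions, *Epha10* (chr4:124880899-124917800) on the plus strand with 17, and *Epha8* (chr4:136929419-136956816) on the minus strand with 17. *Efna3* (chr3:89313899-89322965) and *Efna4* (chr3:89333390-89338028) are neighbors on the minus strand of chromosome 3, near *Efna1*. The other ligand genes are *Efna2* (chr10:80179482-80190010, plus strand) and *Efna5* (chr17:62604184-62881317, minus strand), and the other receptor genes are *Epha3* (chr16:63543534-63864175), *Epha4* (chr1:77367185-77515088) and *Epha5* (chr5:84054761-84417382), all on the minus strand. Counts at 3 of the genes could include reads from a gene on the opposite strand, since the use of strand in counting is not given in the sources used here. *Efna3* shares 14.1% of its exonic bases with Gm15998, which held at most 0.279 CPM in any library. *Efna4* shares 10.5% with 4731419I09Rik, which held 0.337 to 1.66 CPM, a range that is not far under that of *Efna4* itself. *Epha10* shares 1.1% with 1700125G02Rik, which held at most 0.0778 CPM. No other stretch of at least 100 bases at 95% identity was shared between a member's longest transcript and another gene.

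The promoters of the members are shown because Sox11 is a DNA-binding factor, whose family recognizes a short core through its HMG domain. The 250 bases before the start of transcription were taken from RefSeq (GRCm38.p6) for all 10 genes, as 12 windows, and searched on both strands for the core letters ACAAAG and ACAATG, which cannot both match the same stretch of a strand. Only *Efna2* and *Efna4* held them, 2 of 10 genes (20%). By window this was 2 of 12 (16.7%), beside 25.2% of all 32851 windows of this length (16.5% with ACAAAG and 10.7% with ACAATG). Each has ACAAAG at 2 places, on the strand of the gene, 205 and 10 bases before the start in *Efna2* and 176 and 129 bases before it in *Efna4*. Both windows are given here beside those of *Epha7* and *Epha8*, whose levels moved in opposite directions in the results that follow, with the match in capitals and each read 5′ to 3′ along the strand of the gene.
Efna2 (chr10:80179232-80179481, plus strand): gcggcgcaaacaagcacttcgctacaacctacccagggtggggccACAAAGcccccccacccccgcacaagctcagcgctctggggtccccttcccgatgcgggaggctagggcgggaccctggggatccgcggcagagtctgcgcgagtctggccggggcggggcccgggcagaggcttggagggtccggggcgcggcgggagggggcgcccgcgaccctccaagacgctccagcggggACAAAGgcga
Efna4 (chr3:89338029-89338278, minus strand): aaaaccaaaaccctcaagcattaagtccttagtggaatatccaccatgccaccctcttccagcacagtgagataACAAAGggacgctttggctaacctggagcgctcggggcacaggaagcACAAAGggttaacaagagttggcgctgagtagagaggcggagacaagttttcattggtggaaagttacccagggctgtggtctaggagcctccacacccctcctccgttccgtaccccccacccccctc
Epha7 (chr4:28812881-28813130, plus strand): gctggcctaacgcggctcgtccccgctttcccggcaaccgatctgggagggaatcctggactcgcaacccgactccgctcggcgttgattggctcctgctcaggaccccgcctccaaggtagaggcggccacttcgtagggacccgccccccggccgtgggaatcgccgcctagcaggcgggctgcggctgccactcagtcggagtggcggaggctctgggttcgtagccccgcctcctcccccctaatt
Epha8 (chr4:136956817-136957066, minus strand): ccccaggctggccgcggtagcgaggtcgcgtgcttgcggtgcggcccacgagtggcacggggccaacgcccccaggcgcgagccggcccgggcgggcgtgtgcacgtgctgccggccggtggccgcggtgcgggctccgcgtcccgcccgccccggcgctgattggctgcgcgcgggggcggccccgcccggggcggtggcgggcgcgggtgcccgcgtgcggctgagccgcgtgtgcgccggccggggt
The *Efna4* window is the least rich in G and C of the members' windows, at 54.4%, and holds 7 CG pairs. That of *Efna2* is 73.6% G and C with 25 CG pairs. The *Epha8* window is the richest, at 84% with 46 CG pairs, against 69.2% with 25 CG pairs for *Epha7* and a median of 52.4% over all windows. A match is a description of the letters, and its absence says only that they are not in this stretch.

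Levels were compared between genes as TPM (transcripts per 1000000), which are scaled by transcript length. In the control RGCs *Epha5*, a receptor that is graded across the mouse retina, was the highest of the 10 with 100 and 77.4 TPM. *Efna3* (41.1 and 37 TPM), *Epha8* (32.3 and 36.3 TPM) and *Efna5* (28.9 and 27.7 TPM) followed, each with both libraries apart from those of the next gene. Lower down, *Efna2* (17.9 and 19.8 TPM) and *Epha4* (18.5 and 8.63 TPM) overlapped, as did *Epha4* and *Epha10* (13.2 and 13.1 TPM), and *Epha7* (2.9 and 1.54 TPM) and *Efna4* (1.27 and 1.84 TPM). *Epha3*, a receptor best known from the chick retina, was the lowest with 0.79 and 0.74 TPM.

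With Sox11 and with Sox11 K91A the order changed below *Efna3*, and *Efna2* came in the place after it in both. Among all 5 ephrin-A ligand genes measured, which include *Efna1*, the share of *Efna5* in the summed TPM was 30% ± 0.269 (SD, n = 2) in control, 15% ± 0.0514 with Sox11 and 13.2% ± 0.66 with Sox11 K91A, while the sum itself was 95.9 and 93 TPM, 111 and 124 TPM, and 108 and 125 TPM. The share of *Efna3* was 41.3% ± 2.17, 50.5% ± 2.23 and 52.9% ± 3.29. Among the 9 EphA genes measured, *Epha5* held 50.5% ± 0.62, 67% ± 6.52 and 62% ± 0.261, and *Epha8* held 20% ± 5.47, 9.07% ± 2.66 and 11.8% ± 0.118. *Epha10* held 7.6% ± 1.4, 2.55% ± 1.27 and 3.11% ± 0.67. Summed EphA mRNA was 200 and 152 TPM in control, 194 and 225 TPM with Sox11 and 200 and 183 TPM with Sox11 K91A, so the groups overlapped in the sum. With 2 libraries against 2, an exact permutation test cannot go below p = 0.333, and these shares are given without a test.

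**Figure D1:**
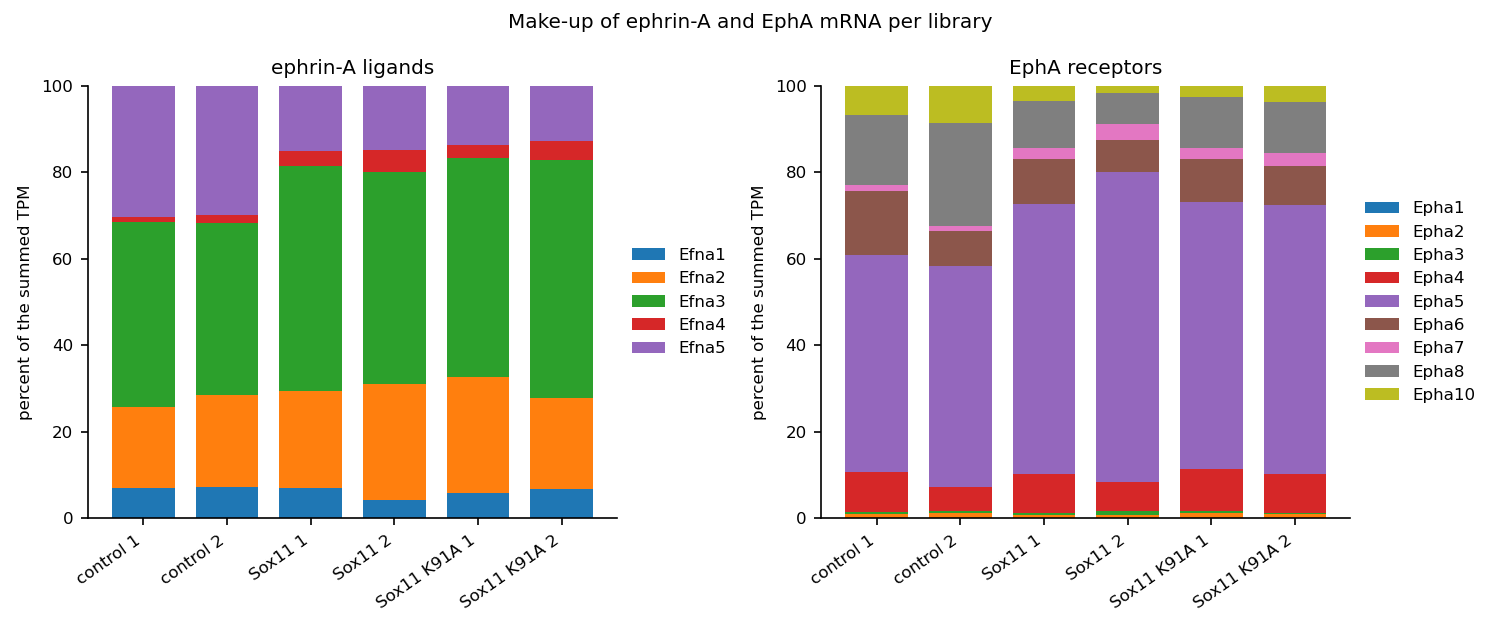
Share of each gene in the summed TPM of the ephrin-A ligand genes (left) and the EphA receptor genes (right), as a percent (vertical axis) in each of the 6 libraries (horizontal axis, group and replicate). *Efna5* and *Epha8* take a smaller part of the bars, and *Epha5* a larger part, in the 4 Sox11 and Sox11 K91A libraries than in the 2 control libraries.

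The first question was how the members differed between Sox11 and control. With limma-voom, and calls at an adjusted p under 0.05 and a fold change above 1.2, 1 of the 10 genes was called higher (*Epha7*), beside 9.95% of all genes tested, and 3 were called lower (*Efna5*, *Epha8* and *Epha10*), beside 10.2% of all genes tested. For 6 genes both Sox11 libraries were above both controls and for 3 both were below, so that 9 of 10 did not overlap, beside 61.5% of all genes. The median of the absolute log2 fold change was 0.75 over the 10 genes and 0.46 over all genes tested. With Sox11 K91A, none of the 10 was called higher, beside 5.81% of all genes tested, and 2 were called lower (*Efna5* and *Epha10*), beside 4.81%. Both Sox11 K91A libraries were above the controls for 5 genes and below for 3, beside 61.9% of all genes in either direction, and the median absolute log2 fold change was 0.60 against 0.39 over all genes. Both comparisons use the same 2 control libraries, so they are not separate evidence on a gene.

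**Figure D2:**
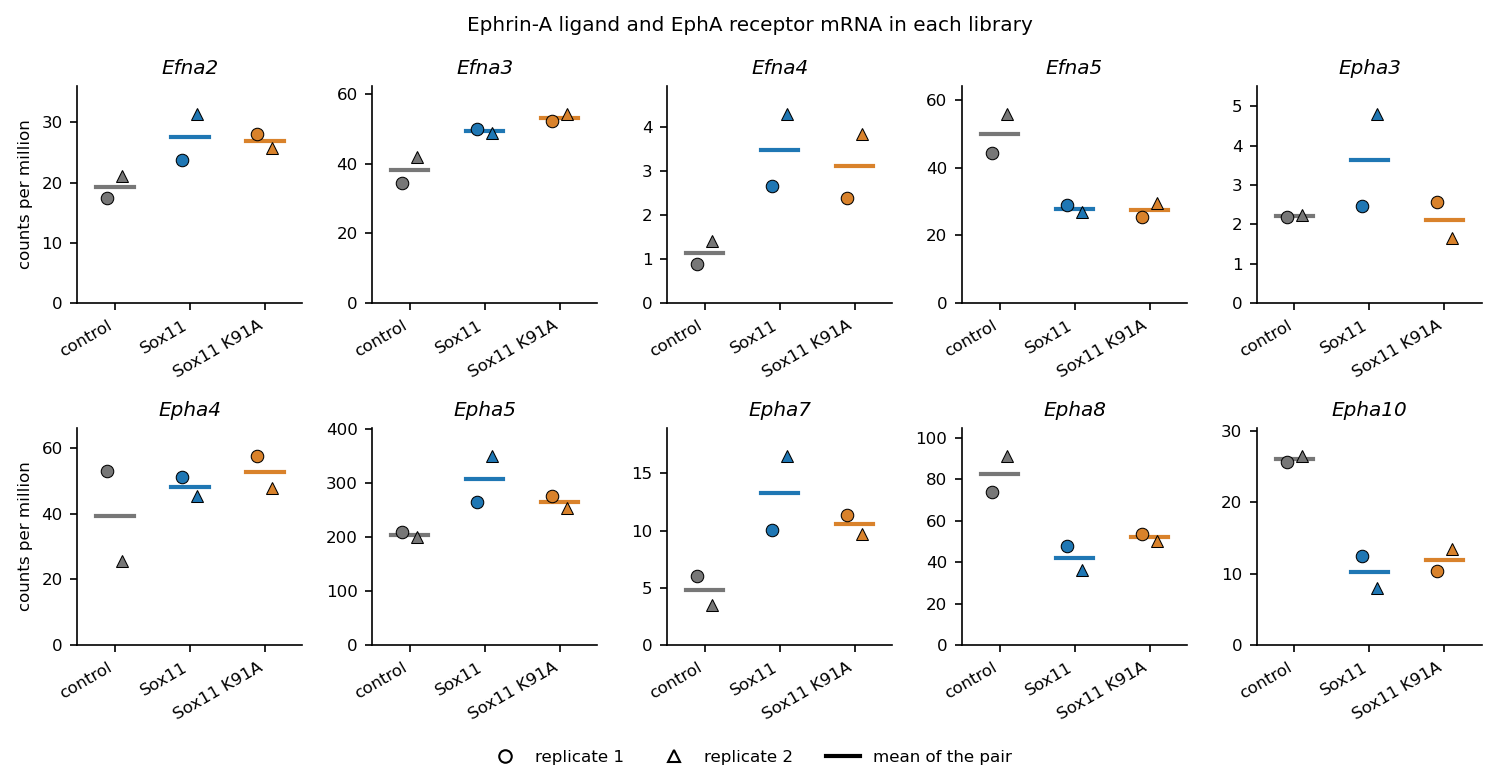
CPM (vertical axes, each from 0) of the 10 genes in the control, Sox11 and Sox11 K91A libraries, with replicate 1 as circles, replicate 2 as triangles and the mean of each pair as a bar. For *Efna5*, *Epha8* and *Epha10* all 4 Sox11 and Sox11 K91A libraries lie under both controls, and for *Efna2*, *Efna3*, *Efna4*, *Epha5* and *Epha7* all 4 lie above them.

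Among the ligands, only *Efna5* was called, and it fell with either virus. *Efna5* encodes a ligand with graded levels in the superior colliculus that is also made by RGCs. Its CPM was 44.3 and 55.7 in control, 29 and 26.8 with Sox11, and 25.4 and 29.5 with Sox11 K91A. The 4 Sox11 and Sox11 K91A libraries were thus close together and all below both controls. The log2 fold change was -0.84 (SE 0.17, adjusted p = 0.0227) with Sox11 and -0.87 (SE 0.17, adjusted p = 0.0305) with Sox11 K91A. Without control replicate 2 these were -0.68 (adjusted p = 0.0507) and -0.71 (adjusted p = 0.0664). Leaving out Sox11 replicate 2 gave -0.78 (adjusted p = 0.149), and leaving out Sox11 K91A replicate 1 or 2 gave -0.76 and -0.98 (adjusted p = 0.321 and 0.105).

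The other 3 ligand genes had higher values with either virus, and none passed the threshold with limma-voom on all 6 libraries. *Efna2*, which with *Efna5* forms the gradient of the superior colliculus, had 17.4 and 21 CPM in control, 23.8 and 31.3 with Sox11 and 28.1 and 25.8 with Sox11 K91A. *Efna3*, the most abundant ligand here, had 34.5 and 42 CPM, 50.1 and 48.8, and 52.2 and 54.2. For both genes all 4 Sox11 and Sox11 K91A libraries were above both controls. The log2 fold change of *Efna2* was 0.51 (95% confidence interval 0.04 to 0.98, adjusted p = 0.107) with Sox11 and 0.48 (0.02 to 0.95, adjusted p = 0.152) with Sox11 K91A. That of *Efna3* was 0.37 (0.02 to 0.73, adjusted p = 0.117) and 0.48 (0.12 to 0.83, adjusted p = 0.083). With a block for the low *Xist* libraries *Efna2* was called higher with both viruses (adjusted p = 0.0439 and 0.0392), and DESeq2 called *Efna3* higher with Sox11 K91A (adjusted p = 0.0474). Both were also called higher with Sox11 K91A when control replicate 2 and Sox11 replicate 2 were left out. That fit measures spread only between the 2 Sox11 K91A libraries and holds none from control.

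*Efna4* had the largest fold of the ligands on the fewest reads. It held 25 and 54 counts in control, 73 and 142 with Sox11 and 77 and 112 with Sox11 K91A, which is 0.895 and 1.4 CPM, 2.66 and 4.28 CPM, and 2.39 and 3.84 CPM. The groups did not overlap, but replicate 2 was the higher library in each of them. The log2 fold change was 1.56 (SE 0.48, adjusted p = 0.06) with Sox11 and 1.38 (SE 0.48, adjusted p = 0.11) with Sox11 K91A. When replicate number was added to the fit as a block, *Efna4* with Sox11 was 1.58 with an adjusted p of 0.0409, and without Sox11 replicate 1 it was 1.89 with an adjusted p of 0.0456, so in those fits *Efna4* was called. It was also called with both viruses by DESeq2 (adjusted p = 0.0129 and 0.0385) and with the low *Xist* block (adjusted p = 0.0354 and 0.0469). The opposite-strand gene that shares its exonic bases, 4731419I09Rik, had 0.93 and 0.337 CPM in control, 1.06 and 1.66 CPM with Sox11 and 0.9 and 0.995 CPM with Sox11 K91A, and its part in the *Efna4* counts was not tested.

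Of the receptors, *Epha10* had the largest fall. *Epha10* is an unusual EphA gene, whose kinase domain is thought to be inactive. It had 25.6 and 26.4 CPM in control, 12.4 and 7.96 CPM with Sox11, and 10.4 and 13.4 CPM with Sox11 K91A. The controls were nearly equal and all the other libraries were well below them. On the log2 scale it changed by -1.41 (SE 0.24, adjusted p = 0.0161) with Sox11 and -1.14 (SE 0.23, adjusted p = 0.0316) with Sox11 K91A. It was the only member still called with Sox11 when control replicate 2 was left out, while without Sox11 replicate 2 the value was -1.07 with an adjusted p of 0.105. With Sox11 K91A the call was lost without control replicate 2 (-1.13, adjusted p = 0.0771), without Sox11 K91A replicate 1 (-0.96, adjusted p = 0.322) and without Sox11 K91A replicate 2 (-1.32, adjusted p = 0.0998).

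*Epha8*, a receptor with graded levels in the midbrain that RGCs also make, followed the same direction. Its CPM was 73.9 and 91 in control, 48 and 36 with Sox11 and 53.7 and 50.3 with Sox11 K91A. The 3 groups did not overlap: controls were highest and Sox11 lowest. Its log2 fold change was -0.98 (SE 0.19, adjusted p = 0.0192) with Sox11. With Sox11 K91A it was -0.66 (SE 0.18), and the adjusted p of 0.0653 did not pass. The call with Sox11 was lost without control replicate 2 (-0.84) and without Sox11 replicate 2 (-0.77). With Sox11 K91A, DESeq2 called *Epha8* lower (-0.67, adjusted p = 0.018). A call with Sox11 K91A also appeared without control replicate 1 (-0.81) and without control replicate 2 and Sox11 replicate 2 (-0.51). Those 2 fits keep 1 control library and so hold no spread between controls. Of the RGC markers, 3 of 9 were likewise called lower with Sox11, beside 10.2% of all genes tested. With Sox11 K91A it was 1 of 9, beside 4.81%. The part of the marker shifts in the lower values of *Efna5*, *Epha8* and *Epha10* was not tested.

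*Epha7* was the only member that limma-voom called higher on all 6 libraries, with Sox11. It encodes a receptor that exists with and without the kinase domain. Its CPM was 6.05 and 3.55 in control, 10.1 and 16.5 with Sox11 and 11.4 and 9.74 with Sox11 K91A. All Sox11 and Sox11 K91A libraries were above both controls, and Sox11 replicate 2 was the highest. The log2 fold change was 1.54 (SE 0.36, adjusted p = 0.0311) with Sox11 and 1.23 (SE 0.37, adjusted p = 0.0784) with Sox11 K91A, which DESeq2 called (adjusted p = 0.0258). Without Sox11 replicate 2 the value with Sox11 was 1.16 (adjusted p = 0.165), and without control replicate 2 it was 1.11 (adjusted p = 0.122). With both of these left out it was 0.74 (adjusted p = 0.128). Leaving out Sox11 K91A replicate 1 or 2 hardly moved the value (1.53 and 1.54), but the adjusted p no longer passed (0.0555 and 0.0576).

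*Epha5*, the main EphA receptor of these cultures, had 210 and 199 CPM in control, 265 and 349 CPM with Sox11 and 275 and 254 CPM with Sox11 K91A. All 4 libraries with either virus were above both controls. Its log2 fold change was 0.57 (SE 0.17, adjusted p = 0.0565) with Sox11 and 0.37 (SE 0.17, adjusted p = 0.194) with Sox11 K91A, and neither passed. Without Sox11 replicate 1 the value was 0.77 with an adjusted p of 0.039, and without Sox11 replicate 2 it was 0.37 with an adjusted p of 0.304. With all 6 libraries and the same fold, *Epha5* was called higher with Sox11 by DESeq2 (0.57, adjusted p = 0.0179) and with the low *Xist* block (0.57, adjusted p = 0.0387).

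The remaining receptors, *Epha4* and *Epha3*, were not called, and in each a single library carried most of the difference. *Epha4*, a receptor that binds both A-type and B-type ephrins, had 52.9 and 25.6 CPM in control, 51.1 and 45.2 CPM with Sox11 and 57.4 and 47.7 CPM with Sox11 K91A. Control replicate 1 lay among the Sox11 libraries and control replicate 2 lay far under all the others. The log2 fold changes of 0.41 (adjusted p = 0.385) and 0.54 (adjusted p = 0.298) became -0.15 and -0.02 without control replicate 2, and 0.91 (adjusted p = 0.0277) and 1.04 (adjusted p = 0.0282) without control replicate 1. *Epha3* had 2.18 and 2.23 CPM in control, 2.47 and 4.8 CPM with Sox11 and 2.58 and 1.65 CPM with Sox11 K91A. Both Sox11 libraries were above both controls, replicate 1 by little, while the Sox11 K91A libraries lay on either side of them. The log2 fold changes were 0.67 (adjusted p = 0.292) with Sox11, or 0.16 without Sox11 replicate 2, and -0.09 (adjusted p = 0.921) with Sox11 K91A.

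**Figure D3:**
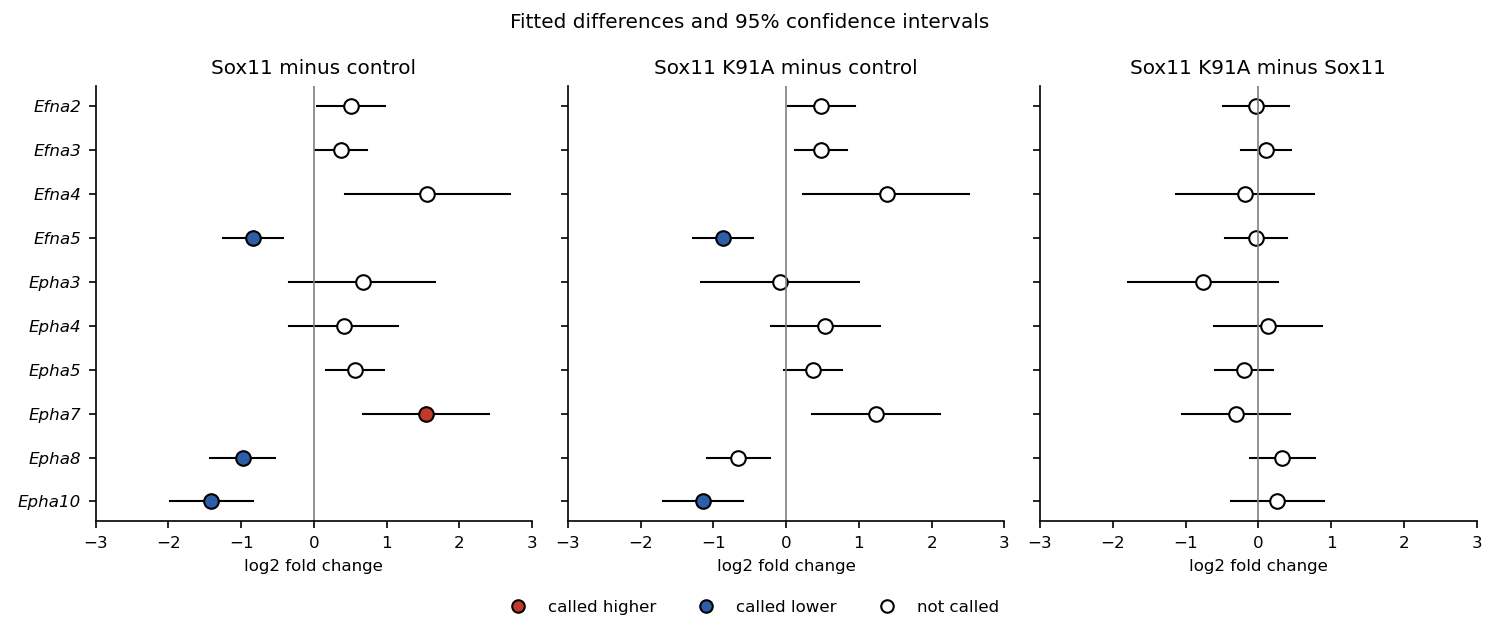
Log2 fold changes (horizontal axes) of the 10 genes from limma-voom, with each virus set against control (left and middle panels) and the 2 Sox11 forms set against each other (right panel), with lines for the 95% confidence interval and filled circles for calls. *Efna5* and *Epha10* are called lower in both comparisons with control, *Epha8* lower and *Epha7* higher with Sox11, and every interval of the right panel includes 0.

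The second question was whether blocking SUMOylation at lysine 91 changed the response of these genes, which only a test of the 2 forms against each other addresses. None of the 10 was called, and limma-voom called 0% of the genes tested, with 108 genes at an unadjusted p under 0.05, while edgeR called 0 and DESeq2 called 2 of all genes, both lower. For 2 of the 10 genes both Sox11 K91A libraries were above both Sox11 libraries (*Efna3* and *Epha8*), beside 26.6% of all genes that did not overlap in either direction. The log2 difference of *Epha8* was 0.33 (95% confidence interval -0.12 to 0.78), from 48 and 36 CPM with Sox11 to 53.7 and 50.3 CPM with Sox11 K91A. That of *Efna5* was -0.03 (-0.46 to 0.40) and that of *Efna2* was -0.03 (-0.48 to 0.42), the smallest differences of the group.

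The largest difference was that of *Epha3* at -0.76, with an interval of -1.79 to 0.27 that rests on 68 and 159 counts against 83 and 48. For *Epha7* it was -0.31 (-1.05 to 0.43), for *Epha10* 0.26 (-0.37 to 0.90) and for *Efna4* -0.19 (-1.13 to 0.76). *Epha5* had -0.20 (-0.60 to 0.20), *Epha4* 0.13 (-0.61 to 0.87) and *Efna3* 0.11 (-0.24 to 0.45). With intervals this wide, as for *Epha3*, *Efna4* and *Epha7*, a like action of the 2 forms is not shown. A call of *Epha7* and *Epha8* with Sox11 alone is likewise no difference between the forms, as their direct comparisons did not pass (adjusted p = 1 for each).

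The 4 remaining genes of the same families, which were not members, gave no call with all 6 libraries. *Epha6*, graded across the retina like *Epha5*, had 46.6 and 22 CPM in control, 31.3 and 25.9 CPM with Sox11 and 31.3 and 28.3 CPM with Sox11 K91A. As for *Epha4*, control replicate 2 was the lowest library. *Efna1* lay between 3.32 and 5.45 CPM and *Epha2* between 2.62 and 3.91 CPM over all libraries, and *Epha1*, at most 0.415 CPM, was too low to test. None of the 3 tested genes was called in either comparison with control, with log2 fold changes from -0.17 to 0.07. Without control replicate 2 and Sox11 replicate 2 more genes of the whole table were called with Sox11 K91A. *Epha6* was then among those called lower, in a fit that measures spread only between the 2 Sox11 K91A libraries.

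The ephrin-B and EphB family, the B-type counterpart that maps the other axis of the retina, also had members called in these libraries. Of 8 genes, 5 were called higher with Sox11 and 5 with Sox11 K91A, beside 9.95% and 5.81% of all genes. None was called lower. The median log2 fold change was 0.88 and 1.09, beside 0.01 and 0.02 over all genes. The receptor gene *Ephb3* had 18.1 and 14.5 CPM in control, 51.7 and 61.8 CPM with Sox11 and 67.1 and 49 CPM with Sox11 K91A, for log2 fold changes of 1.82 (SE 0.23, adjusted p = 0.0115) and 1.84 (SE 0.23, adjusted p = 0.014). *Efnb1*, a transmembrane ligand, changed by 1.24 and 1.16, *Ephb6*, a receptor without kinase activity, by 1.12 and 1.16, and *Ephb2*, a receptor of ventral RGC axons, by 1.29 and 1.22. *Efnb3* was the fifth gene called, at 0.64 and 0.62. All 8 log2 values were positive in each comparison. With control replicate 2 and Sox11 replicate 2 left out, fewer of them were called with Sox11, as over all genes tested. That fit leaves 1 library in each of those groups.

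Proteins that carry EphA forward signalling were examined as a list of 25 genes, all tested. With Sox11 7 were called higher and 2 lower, beside 9.95% and 10.2% of all genes. With Sox11 K91A 3 were called higher and 1 lower, beside 5.81% and 4.81%. In each comparison 16 log2 fold changes were positive and 9 negative. Among the negative genes not called were *Rhoa* (-0.56 and -0.48) and *Cdk5* (-0.52 and -0.37). The median log2 fold change of the list was 0.43 and 0.39. The largest change was in *Ngef*, which encodes ephexin1, the exchange factor that links EphA4 to RhoA and growth cone collapse. *Ngef* had 36.4 and 43.4 CPM in control, 8.92 and 3.74 CPM with Sox11 and 6.3 and 11.1 CPM with Sox11 K91A. Both controls were far above all the other libraries. It changed by -2.82 on the log2 scale (SE 0.40, adjusted p = 0.0123) with Sox11 and by -2.27 (SE 0.36, adjusted p = 0.0204) with Sox11 K91A.

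Others of that list moved up. *Cdk5r1*, the p35 activator of Cdk5, a kinase that phosphorylates ephexin1, rose by 0.88 (adjusted p = 0.0201) and 0.75 (adjusted p = 0.0409) on the log2 scale. The adaptor *Nck2* rose by 0.79 (adjusted p = 0.0191) and 0.65 (adjusted p = 0.0413). *Chn1*, which encodes alpha-chimaerin, a Rac-inactivating protein downstream of EphA4, rose by 0.70 with Sox11 (adjusted p = 0.0227) and had 0.57 with Sox11 K91A (adjusted p = 0.0513). *Vav3*, a guanine nucleotide exchange factor, was the third gene called higher with Sox11 K91A, at 0.94 (adjusted p = 0.0429). *Inppl1*, which encodes the lipid phosphatase SHIP2, was the other gene called lower with Sox11, at -0.76 (adjusted p = 0.0483). Without control replicate 2 and Sox11 replicate 2, fewer genes of the list were called with Sox11 and more with Sox11 K91A. The same held over all genes tested.

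A further list held 9 genes for ephrin-A coreceptors and for enzymes that act on Eph receptors or ephrins. With Sox11 3 were called higher and with Sox11 K91A 2, beside 9.95% and 5.81% of all genes. None was called lower, and in each comparison 6 log2 fold changes were positive and 3 negative. The median of the list was 0.43 and 0.38. *Ret*, which was not called, had 313 and 262 CPM in control, 177 and 54.6 with Sox11, and 163 and 183 with Sox11 K91A. Its log2 fold changes were -1.54 (adjusted p = 0.065) and -0.73 (adjusted p = 0.363). *Ngfr*, which encodes p75NTR, a neurotrophin receptor that serves ephrin-A reverse signalling in RGC axons, had 17.1 and 13.9 CPM in control, 113 and 205 CPM with Sox11 and 163 and 105 CPM with Sox11 K91A. The groups were far apart, with log2 fold changes of 3.32 (SE 0.36, adjusted p = 0.011) and 3.10 (SE 0.36, adjusted p = 0.014). *Ptpro*, a phosphatase that acts on Eph receptors, rose by 0.79 (adjusted p = 0.0174) and 0.73 (adjusted p = 0.0297). *Adam10*, a protease that cleaves ephrin-A ligands, rose by 1.17 with Sox11 (adjusted p = 0.0186) and had 0.84 with Sox11 K91A (adjusted p = 0.0556). In the fit without control replicate 2 and Sox11 replicate 2, lower calls appeared with each virus. More of the list was called with Sox11 K91A, as over all genes tested.

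Genes that pattern the retinal axes, along which ephrin-A and EphA levels are set in development, mostly did not pass, like most genes tested. Of 15 such genes 14 were tested, with 1 called higher and 1 lower with Sox11, beside 9.95% and 10.2% of all genes. With Sox11 K91A 1 was called higher and 0 lower, beside 5.81% and 4.81%. The median log2 fold change of the list was 0.17 and 0.14, beside 0.01 and 0.02 over all genes. *Meis1*, a homeodomain factor of the developing retina, rose by 0.65 (adjusted p = 0.024) and 0.60 (adjusted p = 0.0404). *Gdf6*, a BMP-family ligand of the dorsal retina, had 20 and 21.4 CPM in control, 8.41 and 2.35 CPM with Sox11 and 3.44 and 8.23 CPM with Sox11 K91A. It fell by 2.27 on the log2 scale with Sox11 (SE 0.54, adjusted p = 0.0315), while the value of -1.98 with Sox11 K91A did not pass (adjusted p = 0.0546). The other 12 genes were not called with Sox11. Leaving out control replicate 2 and Sox11 replicate 2, fewer of these genes were called with Sox11 and more with Sox11 K91A, as over all genes tested.

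**Figure D4:**
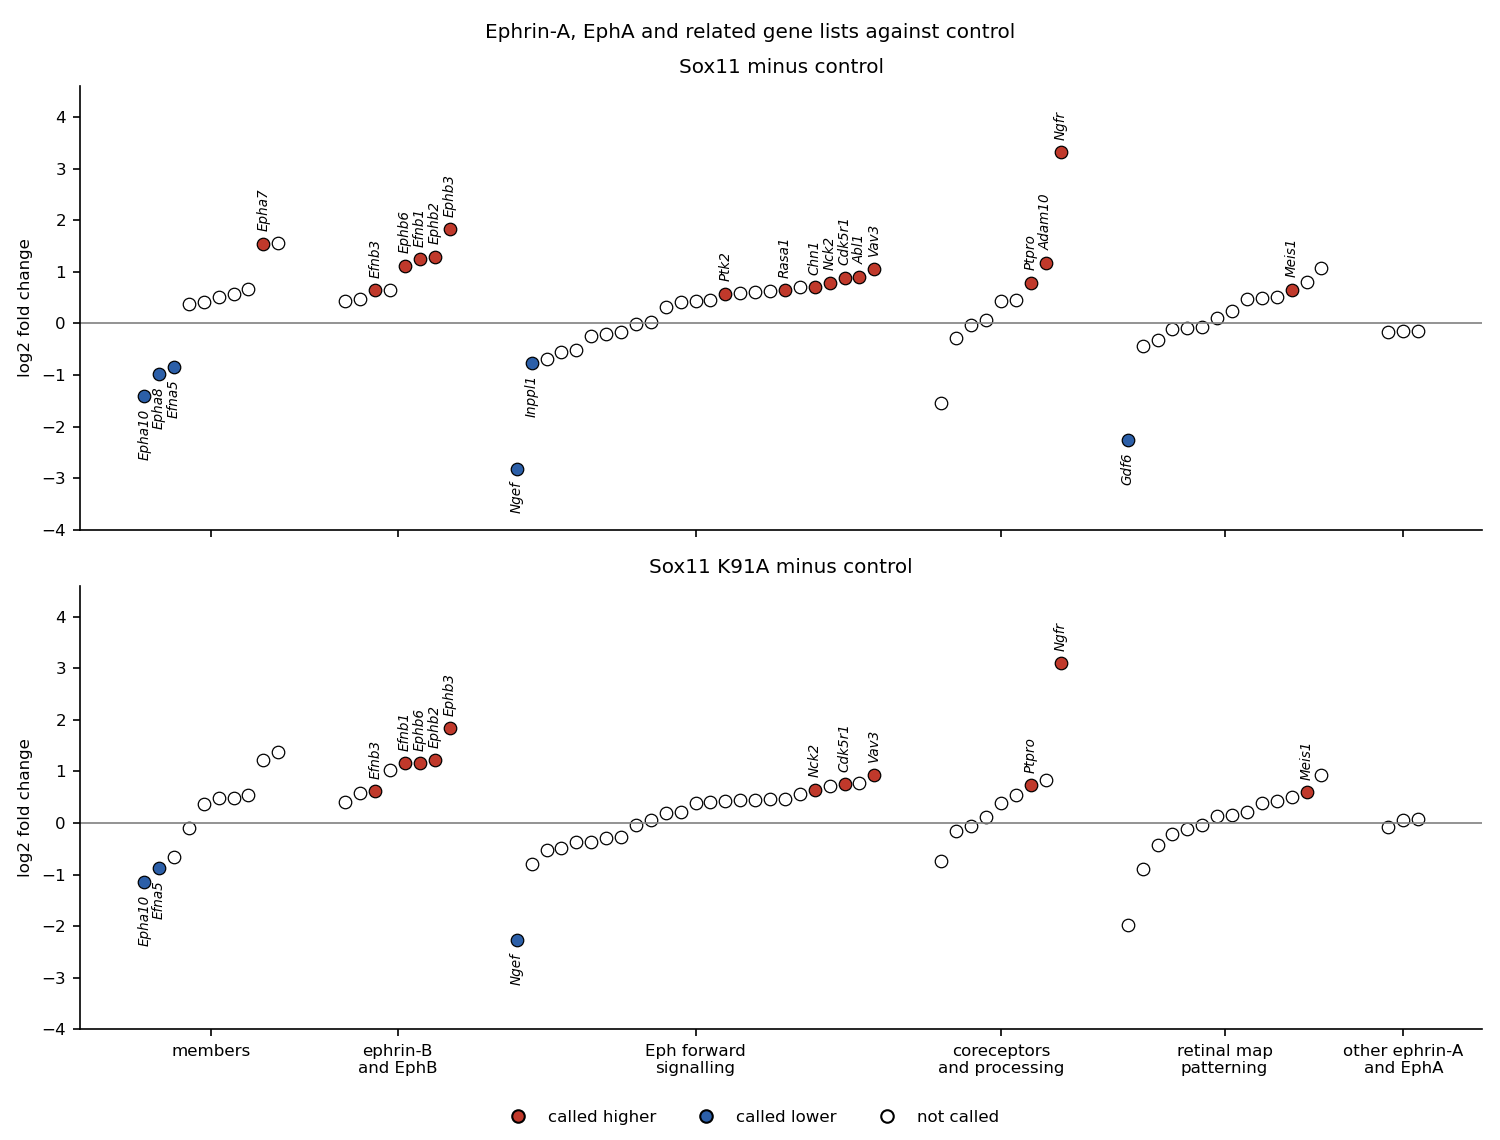
Log2 fold change (vertical axes) against control of each tested gene in 6 lists, sorted within a list, for Sox11 (top) and Sox11 K91A (bottom), with filled circles and names for genes called by limma-voom. *Ngfr* is the highest and *Ngef* the lowest point of both panels, and the ephrin-B and EphB genes all lie above 0.

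The calls of the members rested on few libraries. Without Sox11 replicate 2 limma-voom called no gene of the whole table with Sox11 (3349 at an unadjusted p under 0.05), and so none of the 10. Without control replicate 2 or without Sox11 K91A replicate 1 it called no gene with Sox11 K91A (4703 and 1915 at an unadjusted p under 0.05), and without Sox11 K91A replicate 2 it called 161 genes, none of them a member. Under these same omissions the B-type genes and the other lists lost their calls as well, except that without Sox11 K91A replicate 2, 1 B-type gene and 1 coreceptor or processing gene were still called higher with Sox11 K91A. The direction of *Efna5*, *Epha8*, *Epha10* and *Epha7* was the same in 15 other ways of fitting or of choosing libraries, and their smallest log2 fold changes with Sox11 were -0.61, -0.62, -1.04 and 0.74. In these, *Epha8* and *Epha10* were each called lower in 13, *Efna5* in 11, and *Epha7* was called higher in 8. With Sox11 K91A, *Efna5* and *Epha10* were each called lower in 12 of 15.

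**Figure D5:**
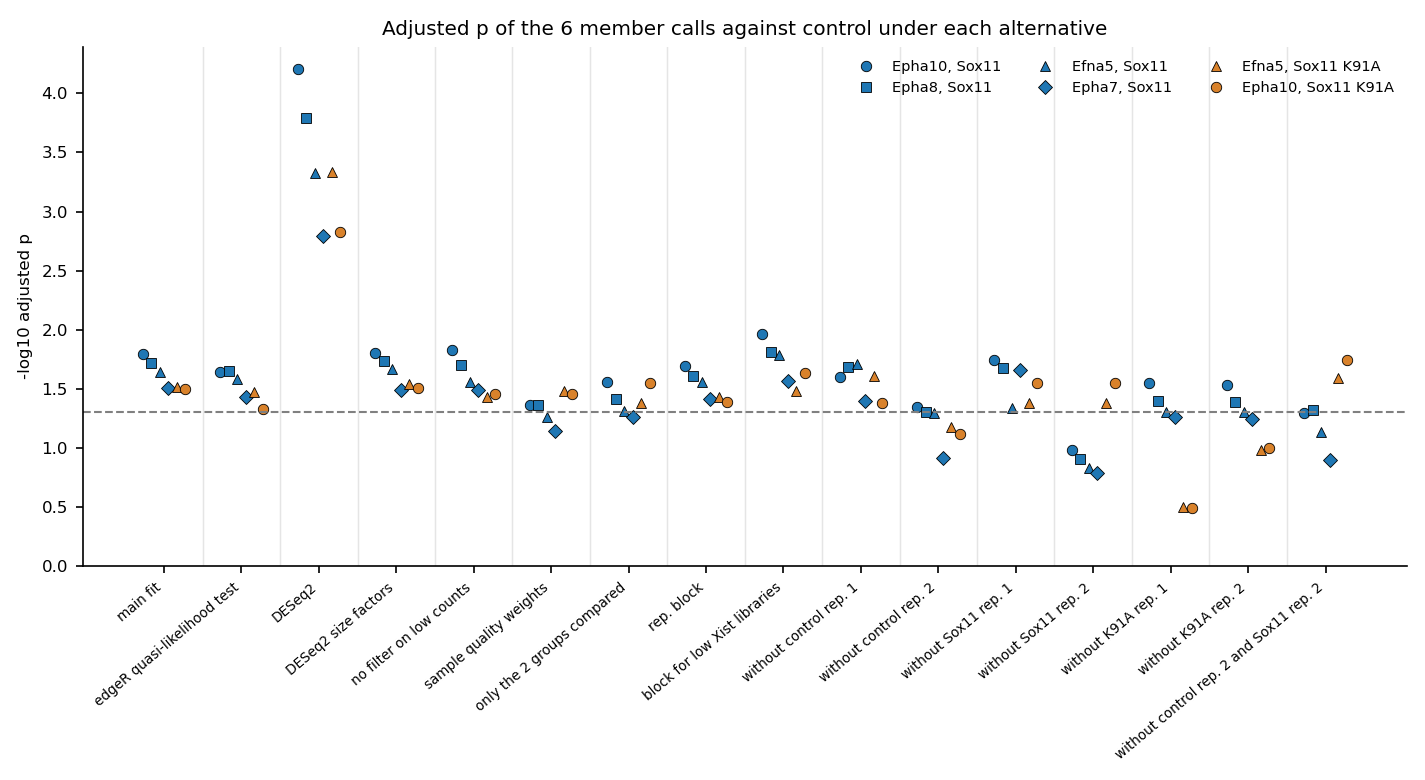
Adjusted p on a -log10 scale (vertical axis) of the 6 calls of members against control, under the fit reported here and under each of 15 other fits or choices of libraries (horizontal axis), with the dashed line at 0.05 and blue for Sox11, orange for Sox11 K91A. DESeq2 gives the highest points, and the calls with Sox11 fall under the line without Sox11 replicate 2.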

How the data were processed

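Gene-level RSEM tables of 6 libraries were used, grouped by the virus named in the labels. The authors deposited expected counts, which are estimated reads per gene and need not be whole, and TPM, which the authors' pipeline scaled by transcript length. STAR and RSEM with mm10 are named in the submitters' processing notes, and versions and annotation release are not given in the sources used here. The deposited tables also hold a mean transcript length per gene. Of 69690 entries, 43346 were Ensembl genes, and 98.0% of these had a symbol in GENCODE M21. Entries of other kinds held 1 count in Sox11 replicate 1 and 0 elsewhere. Of the values above 0, 80.9% to 82.8% were whole.

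Expected counts were rounded, filtered with filterByExpr, scaled by TMM (factors 0.985 to 1.04) and fitted over all 6 libraries with limma-voom (R 4.3.3, limma 3.58.1, edgeR 4.0.16), with Benjamini-Hochberg adjustment over 15747 genes. A call needs an adjusted p under 0.05 and a fold change above 1.2, the criteria of the study. CPM are counts per 1000000 of the TMM-scaled total of the genes tested. Alternatives were edgeR's quasi-likelihood test, DESeq2 1.42.0, its size factors, no filter on low counts, sample quality weights, fits on a pair of groups alone, blocks for the replicate number or for low *Xist* libraries, and leaving libraries out. Python 3.11.15 (pandas 2.3.3, numpy 2.4.6, scipy 1.17.1, matplotlib 3.10.9) made tables and plots, and BLAST+ 2.17.0 searched shared sequence (95% identity over at least 100 bases).

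The members and lists were chosen with earlier results of these data known. All 10 members and the other ephrin-A and EphA genes are named. Of each other list, at most 4 called genes with the smallest adjusted p are named. After their values were seen, *Efnb3*, *Vav3*, *Inppl1*, *Ret*, *Rhoa* and *Cdk5* were added.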

Additional observations from a re-analysis of the deposited data

How the results depend on the processing

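Over 15 other fits or choices of libraries for each of the 10 genes, direction and side of the threshold were kept in 124 of 150 values with Sox11, 129 of 150 with Sox11 K91A and 133 of 150 in the direct comparison, and 2, 4 and 17 reversed. The cause of these shifts was not tested. With Sox11 the number of members called higher was 1 in the results given, beside 1567 of all 15747 genes tested. It was 3 with DESeq2 (2118 of all genes) and 4 with the block for low *Xist* libraries (2163 of all genes). It was 0 with sample quality weights (527 of all genes) and 0 with only the 2 groups compared (810 of all genes). With Sox11 K91A the number called higher was 0, beside 915 of all genes. It was 3 with DESeq2 (1551 of all genes) and 2 with the low *Xist* block (1326 of all genes). These numbers, and the 3 and 2 members called lower, also moved where libraries were left out.

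The replicate block raised the members called higher with Sox11 to 2 by adding *Efna4*, and changed no other call of a member, with 2680 and 1408 genes called in all against 3169 and 1672. Same-numbered libraries did not deviate together throughout (correlations 0.296, -0.054 and -0.421). The positive value was that of control with Sox11, whose replicate 2 libraries were both low in *Xist* (95.9 and 254 CPM). Whether libraries of different groups shared a batch was not tested. With the Sox11 K91A numbers crossed, chosen after seeing the data, 2 members were called higher with Sox11, and 4074 and 2753 genes in all.

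Against control, *Epha4* ranged over the single-library omissions from -0.15 to 0.91 with Sox11 and from -0.02 to 1.04 with Sox11 K91A, with the negative values without control replicate 2, and it also reversed without this library and Sox11 replicate 2 (-0.05 and -0.01). *Epha3* with Sox11 K91A reversed with the low *Xist* block (0.25), and ranged from -0.42 to 0.22 over the omissions. In the direct comparison the low *Xist* block gave 0.15 for *Efna2*, 0.17 for *Efna4*, 0.04 for *Efna5* and -0.17 for *Epha4*. Over the single-library omissions it ranged from -0.22 to 0.18 for *Efna2*, -0.52 to 0.18 for *Efna4*, -0.14 to 0.08 for *Efna5*, -0.01 to 0.25 for *Epha4*, -0.64 to 0.07 for *Epha7* and -0.08 to 0.56 for *Epha10*. Without control replicate 2 and Sox11 replicate 2 it was 0.18 for *Efna2*, 0.17 for *Efna4*, 0.07 for *Epha7* and -0.08 for *Epha10*.

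Genes called over the whole table moved by more than 1.5 times from 3169 with Sox11 to 979 with quality weights, 1637 with only the 2 groups, 1686 without the 2 libraries and 0 to 3741 over the omissions, and from 1672 with Sox11 K91A to 3144 with DESeq2, 2894 with the low *Xist* block, 3880 without the 2 libraries and 0 to 2529 over the omissions. Quality weights moved the split of higher and lower calls with Sox11 K91A from 915 and 757 to 631 and 769. Where an omission leaves 1 library in a group, that library is assumed to vary like the others. Without control replicate 2 and Sox11 replicate 2, spread is measured only between the 2 Sox11 K91A libraries. Their median absolute log2 difference was 0.14, beside 0.3 in control and 0.23 with Sox11. Depth limited *Efna4* and *Epha3* most, with 25 to 159 counts per library.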
